A study of Mus musculus with 8 samples.

Results

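The members are the genes that lie within 10 Mb of Tet1 on mouse chromosome 10. They are the chromosome 10 genes of the deposited tables whose whole body falls inside that window (mm9 build) and spans under 500 kb, leaving out Tet1 itself and Cdk1, Cdc2a and Egr2. This gave 115 genes of 20696 in the series, of which 106 stood in the tables of both cell populations, 5 in the LT-HSC table alone and 4 in the MPP table alone. There were 76 members at lower coordinates than Tet1 and 39 at higher ones, and 0 overlapped it. Distance below is the gap in Mb between the body of a gene and that of Tet1, which occupies chr10:62267318-62361866. Their spans ran between 0.339 and 493 kb, with a median of 32.0 kb.

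Poly(A) RNA was sequenced from flow-sorted mouse bone marrow cells of 4 groups with 2 libraries each: Tet1 KO and WT LT-HSC, and Tet1 KO and WT MPP. LT-HSC are long-term hematopoietic stem cells, which renew themselves and can rebuild the blood, and MPP are multipotent progenitors, the more short-lived cells derived from them. The cells of all 4 groups came from mice that had been transplanted 20 weeks earlier with bone marrow, either Tet1 KO or WT. The labels give the strain as CD57BL/6 and the age as 6 months. Each LT-HSC library was made from 10000 cells and each MPP library from 100000 cells, with paired reads of 50 bp. The Tet1 allele, the strain it was made in, the sort gates, and whether recipient cells remained among the sorted cells are not stated in the labels. Nor do the labels say whether the libraries of a group are from different mice, so p-values measure the spread between libraries, which may be technical.

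The TET1 enzyme acts on DNA methylation: it oxidizes the methyl mark of cytosines, which sits mostly at CG dinucleotides. A gene near a targeted locus is inherited together with it, so that a KO and a WT mouse can differ in the DNA around the locus when the allele was made in one strain and crossed into another. A deletion can also remove regulatory DNA that neighbouring genes use. For both reasons, the level of each neighbour in KO and WT cells is a usual check of a knockout.

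The promoters of the 3 genes that rose in both populations are shown beside that of Ccar1, the nearest neighbour of Tet1, whose level is described below. Each line holds the 250 bases before the annotated start, 5′ to 3′ on the gene's own strand, which is the minus strand for all 4, and CG dinucleotides are in capitals. The sequences are those of RefSeq on GRCm38.p6, whose coordinates are not those of mm9. They lie at chr10:62231219-62231468 (Tspan15), chr10:61273420-61273669 (Adamts14), chr10:60696491-60696740 (Cdh23) and chr10:62792369-62792618 (Ccar1).
Tspan15: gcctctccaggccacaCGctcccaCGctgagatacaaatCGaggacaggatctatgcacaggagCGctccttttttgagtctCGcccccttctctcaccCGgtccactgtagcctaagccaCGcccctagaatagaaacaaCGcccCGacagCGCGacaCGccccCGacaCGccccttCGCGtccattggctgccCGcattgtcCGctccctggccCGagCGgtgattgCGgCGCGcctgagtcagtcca
Adamts14: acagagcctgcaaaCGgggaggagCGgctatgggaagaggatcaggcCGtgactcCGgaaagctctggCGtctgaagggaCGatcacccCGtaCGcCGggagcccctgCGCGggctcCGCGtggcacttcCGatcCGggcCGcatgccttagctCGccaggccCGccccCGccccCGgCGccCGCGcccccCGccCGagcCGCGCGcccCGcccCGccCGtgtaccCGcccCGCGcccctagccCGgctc
Cdh23: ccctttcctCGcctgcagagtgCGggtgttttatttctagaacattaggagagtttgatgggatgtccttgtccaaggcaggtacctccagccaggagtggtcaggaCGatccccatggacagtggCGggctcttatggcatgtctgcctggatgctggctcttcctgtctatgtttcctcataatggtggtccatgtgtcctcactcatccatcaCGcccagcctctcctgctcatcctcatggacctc
Ccar1: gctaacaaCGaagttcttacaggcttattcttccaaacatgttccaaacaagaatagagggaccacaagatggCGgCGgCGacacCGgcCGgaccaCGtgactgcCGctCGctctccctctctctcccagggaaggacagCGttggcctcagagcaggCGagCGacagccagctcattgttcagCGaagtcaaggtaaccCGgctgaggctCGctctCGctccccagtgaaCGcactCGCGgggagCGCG
The window before Tspan15 held 23 CG, that before Adamts14 35, that before Cdh23 5 and that before Ccar1 21. The search was for the letters CG, which read the same on both strands. Over all 32851 gene starts of the RefSeq table the median was 6 CG in such a window, and 92.1% held at least 1. The promoters of the genes that rose therefore differed widely in CG count, and that of Ccar1 lay between them.

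The targeted gene was read first. Tet1 had 336 and 379 counts in LT-HSC KO libraries, compared with 332 and 428 in LT-HSC WT libraries (log2 fold change -0.09 ± 0.19 SE, adjusted p = 0.765). In MPP it had 765 and 855 counts in KO libraries, compared with 1207 and 1323 in WT libraries (-0.62 ± 0.09, adjusted p = 0.0282). The count over the whole gene thus fell in MPP KO and did not pass the test in LT-HSC KO. Which bases of Tet1 the allele removes is not stated in the labels, and the summed reads of a partly deleted gene do not check its genotype. KO and WT below therefore mean the libraries labelled so. Adjusted p-values here and below are from edgeR's quasi-likelihood test over all genes of a table with Benjamini-Hochberg adjustment, and a gene is called at an adjusted p under 0.05.

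The KO libraries also differed from the WT libraries in ways that are not specific to the region. The Y-linked genes Ddx3y, Eif2s3y, Kdm5d and Uty had 1 to 35 counts in LT-HSC KO libraries against 101 to 400 in LT-HSC WT libraries, and 0 to 57 in MPP KO libraries against 282 to 1002 in MPP WT libraries. Sex and genotype therefore cannot be told apart here. Library totals came to 5059917 to 5356505 in LT-HSC KO, 4976459 to 5479731 in LT-HSC WT, 12400764 to 12504581 in MPP KO and 11928659 to 12030265 in MPP WT. Of the erythroid markers, 8 of 8 were higher in LT-HSC KO, where they summed to 3752.4 to 4139.9 CPM (counts relative to the library total), against 1070.3 to 1162.9 in LT-HSC WT. Stroma markers, of which 6 of 6 were higher, summed to 457 to 683 CPM in LT-HSC KO and 22.8 to 26.8 in LT-HSC WT, where Bglap and Cxcl12 were at 0. The stem and multipotent markers summed to 1645.8 to 1684.9 CPM in LT-HSC KO and 2063.9 to 2122.1 in LT-HSC WT, with 3 lower and 1 higher of 10. Megakaryocyte markers, 4 of 4 lower, summed to 228 to 293 CPM in LT-HSC KO and 627 to 832 in LT-HSC WT. T and NK markers, 2 of 2 tested lower, summed to 9.34 to 10.2 CPM in LT-HSC KO and 68.5 to 70.2 in LT-HSC WT, and granulocyte and monocyte markers, 5 of 5 higher, to 37.4 to 39.6 CPM in LT-HSC KO and 7.33 to 8.38 in LT-HSC WT. In such bulk libraries, fewer cells of a type and less RNA per cell cannot be told apart.

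The genes that flank Tet1 directly did not pass the test in either population. Ccar1, a transcriptional coactivator of cell cycle and apoptosis genes 0.012 Mb before Tet1, had 1460 and 1137 counts in LT-HSC KO, compared with 1603 and 1208 in LT-HSC WT, and 2912 and 2635 counts in MPP KO, compared with 3011 and 2777 in MPP WT. Its log2 fold changes were -0.11 ± 0.19 (adjusted p = 0.701) and -0.04 ± 0.08 (adjusted p = 0.806), and KO and WT libraries overlapped in both populations. On the other side, Slc25a16, a mitochondrial carrier 0.022 Mb away, had 116 and 114 counts in LT-HSC KO, compared with 117 and 124 in LT-HSC WT, and 262 and 283 in MPP KO, compared with 253 and 287 in MPP WT. Its log2 fold changes were -0.07 ± 0.23 and 0.03 ± 0.11 (adjusted p = 0.856 and 0.889). Dna2, a nuclease and helicase of DNA replication and repair at 0.048 Mb, had 635 and 639 counts in MPP KO, compared with 706 and 742 in MPP WT, groups that did not overlap, without passing the test (-0.16 ± 0.07, adjusted p = 0.238). In LT-HSC its change had the opposite sign (0.25 ± 0.16, adjusted p = 0.284).

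The next neighbours out also did not pass the test. Stox1, a winged-helix transcription factor gene, had log2 fold changes of -0.29 ± 0.39 in LT-HSC and -0.21 ± 0.21 in MPP (adjusted p = 0.612 and 0.584). Rufy2 had 83 and 122 counts in LT-HSC KO, compared with 125 and 181 in LT-HSC WT, and 176 and 180 in MPP KO, compared with 219 and 258 in MPP WT. Its log2 fold changes of -0.57 ± 0.29 and -0.40 ± 0.12 were both negative, with adjusted p-values of 0.173 and 0.126. Rufy2 shares 4079 bases of its body with Hnrnph3, a gene for an RNA-binding splicing protein, and the sources used here do not say whether strand was used in counting, so reads of the pair could be split between them. Hnrnph3 had -0.56 ± 0.23 in LT-HSC and 0.03 ± 0.13 in MPP on the log2 scale (adjusted p = 0.101 and 0.909). In MPP the called member nearest to Tet1 lay at 0.483 Mb, and 15 tested members lay nearer. Of these, 4 had an unadjusted p under 0.05 and DESeq2 called 0. In LT-HSC the nearest called member lay at 0.125 Mb, and 6 tested members lay nearer. Of these, 1 had an unadjusted p under 0.05 and DESeq2 called 0. Both limits are set by the nearest call, so the lack of edgeR calls inside them follows from that choice. Over all genes tested, edgeR called 7.2% in MPP and 33.4% in LT-HSC.

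Further members within 1 Mb included well-expressed genes of blood cells. Srgn, whose product serglycin packs the granule contents of blood cells, had 2078 and 2321 counts in LT-HSC KO, compared with 2774 and 3307 in LT-HSC WT (-0.46 ± 0.17, adjusted p = 0.071), groups that did not overlap. In MPP its log2 fold change was -0.03 ± 0.10 (adjusted p = 0.905). Ddx21, a nucleolar RNA helicase, had -0.25 ± 0.21 in LT-HSC and -0.29 ± 0.08 in MPP (adjusted p = 0.415 and 0.108). Its paralog Ddx50 had -0.36 ± 0.18 and 0.19 ± 0.11 (adjusted p = 0.159 and 0.338). The deacetylase gene Sirt1 had -0.31 ± 0.21 and 0.04 ± 0.09 (adjusted p = 0.292 and 0.854), the hexokinase gene Hk1 had -0.08 ± 0.16 and -0.23 ± 0.08 (adjusted p = 0.732 and 0.172), and the ubiquitin ligase gene Herc4 had 0.07 ± 0.18 and 0.09 ± 0.08 (adjusted p = 0.789 and 0.536). Vps26a, a subunit of the retromer that sorts membrane proteins, had 0.44 ± 0.17 and -0.02 ± 0.09 (adjusted p = 0.0816 and 0.94). 2510003E04Rik had 400 and 419 counts in MPP KO, compared with 328 and 309 in MPP WT, again without overlap and without passing (0.38 ± 0.09, adjusted p = 0.073). 2010107G23Rik was tested in LT-HSC (0.91 ± 0.52, adjusted p = 0.213) and Gm7075 in MPP (-0.10 ± 0.52, adjusted p = 0.932), both on low counts. Apart from 2010107G23Rik, the absolute log2 fold changes of these genes reached at most 0.46 (Srgn in LT-HSC).

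Across the whole window, 24 of 93 tested members were higher in LT-HSC KO and 5 were lower, against background shares of 22.5% higher and 10.9% lower over the 15684 genes tested. In either direction this was 31.2% of members against 33.4% of all genes tested, and 34.7% of the 614 tested genes of chromosome 10 outside the window. In MPP, 7 of 88 tested members were higher in KO and 2 were lower, against 4.74% higher and 2.46% lower over the 14902 genes tested. In either direction this was 10.2% of members against 7.2% of all genes tested and 5.84% of the 582 tested chromosome 10 genes outside the window. The share of the members was thus near that of all genes in LT-HSC, and in MPP the difference rests on 9 calls. The median log2 fold change of the members was 0.07 in LT-HSC and 0.04 in MPP, beside 0.03 and -0.01 over all genes tested. In the authors' deposited table for LT-HSC, 29 members were higher and 9 lower of 111, at a false discovery rate under 0.05. Over all genes listed there, 5418 were higher and 1668 lower of 19685. In that for MPP, 10 members were higher and 1 lower of 110, beside 1006 higher and 487 lower of 18904 genes. Some genes called and named below did not pass there. They include Hsf2 in MPP (false discovery rate 0.204) and Smpdl3a, Ccdc6, Supv3l1 and Lrrc20 in LT-HSC (0.146, 0.0914, 0.0848 and 0.0609). The row deposited as Pbld1 passed there in both populations and was not called here.

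Of the 82 members tested in both populations, 4 were called the same way in both, which is 4.88% against 2.57% of the 13747 genes tested in both. They were Tspan15, Adamts14 and Cdh23, which rose, and Gm5424, which fell. In the authors' deposited tables the 3 rises passed in both populations, whereas Gm5424 passed in LT-HSC and not in MPP (false discovery rate 0.170). The LT-HSC and MPP comparisons share no library. The 4 genes lie on the lower-coordinate side of Tet1, at 0.573, 1.53, 2.11 and 0.732 Mb. Ccar1, Stox1, Ddx50, Ddx21, 2510003E04Rik, Srgn, Vps26a and Hk1, which were not called in either population, lie between them and Tet1, and so do Supv3l1 and Hkdc1, which were called higher in LT-HSC, and Tacr2, too low to be tested (10 and 5 counts in LT-HSC KO, compared with 0 and 1 in LT-HSC WT).

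Tspan15 (ENSMUSG00000037031, chr10:61648144-61693974) encodes a tetraspanin of the cell surface known as a partner of the protease ADAM10. It had 102 and 79 counts in LT-HSC KO, compared with 8 and 19 in LT-HSC WT (2.73 ± 0.45, adjusted p = 0.00271). In MPP it had 26 and 26 counts in KO, compared with 8 and 7 in WT (1.80 ± 0.32, adjusted p = 0.0402). Both KO libraries lay above both WT libraries in each population, and the MPP counts were low. Scaled to library size, the means were 17.4 ± 2.96 CPM in LT-HSC KO and 2.59 ± 1.51 in LT-HSC WT, and 2.14 ± 0.0231 CPM in MPP KO and 0.61 ± 0.0596 in MPP WT (SD, n = 2 each).

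Adamts14 (ENSMUSG00000059901, chr10:60659860-60736186) encodes a secreted metalloproteinase that trims procollagen. Its counts were 37 and 50 in LT-HSC KO, compared with 3 and 3 in LT-HSC WT (3.81 ± 0.56, adjusted p = 0.00181), and 48 and 56 in MPP KO, compared with 11 and 11 in MPP WT (2.25 ± 0.27, adjusted p = 0.0155). Cdh23 (ENSMUSG00000012819, chr10:59765496-60159238) encodes a long cadherin known from the hair cells of the inner ear. It had 166 and 163 counts in LT-HSC KO, compared with 21 and 25 in LT-HSC WT (2.83 ± 0.29, adjusted p = 0.000386), and 99 and 111 counts in MPP KO, compared with 41 and 53 in MPP WT (1.18 ± 0.20, adjusted p = 0.0341). For both genes the KO and WT libraries did not overlap in either population. The rise of Cdh23 was larger in LT-HSC than in MPP by 1.65 ± 0.32 on the log2 scale (interaction of population and genotype, adjusted p = 0.0105; 22 of 100 members and 22.1% of all genes passed this test), whereas for Adamts14 and Tspan15 the difference did not pass (1.58, adjusted p = 0.0908, and 0.93, adjusted p = 0.327).

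Gm5424 (ENSMUSG00000046687, chr10:61533871-61535109) is a processed pseudogene, a reinserted copy of a spliced transcript. Its annotated transcript matched that of Ass1, the gene of the urea cycle enzyme argininosuccinate synthase, at 99.516% of 1240 aligned bases, so reads of the pair could not be assigned with certainty. Gm5424 had 73 and 72 counts in LT-HSC KO, compared with 138 and 142 in LT-HSC WT (-0.95 ± 0.24, adjusted p = 0.0169), and 715 and 678 in MPP KO, compared with 1038 and 997 in MPP WT (-0.53 ± 0.07, adjusted p = 0.0226). The groups did not overlap in either population. Ass1 itself had 33 and 43 counts in LT-HSC KO, compared with 46 and 111 in LT-HSC WT (-1.04 ± 0.46, adjusted p = 0.117), and 122 and 175 in MPP KO, compared with 192 and 274 in MPP WT (-0.63 ± 0.25, adjusted p = 0.198). The fold changes of Ass1 had the same sign as those of Gm5424, without passing the test. The fall of Gm5424 in LT-HSC ended without either KO library, with an adjusted p of up to 0.131 over the alternatives.

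**Figure D1:**
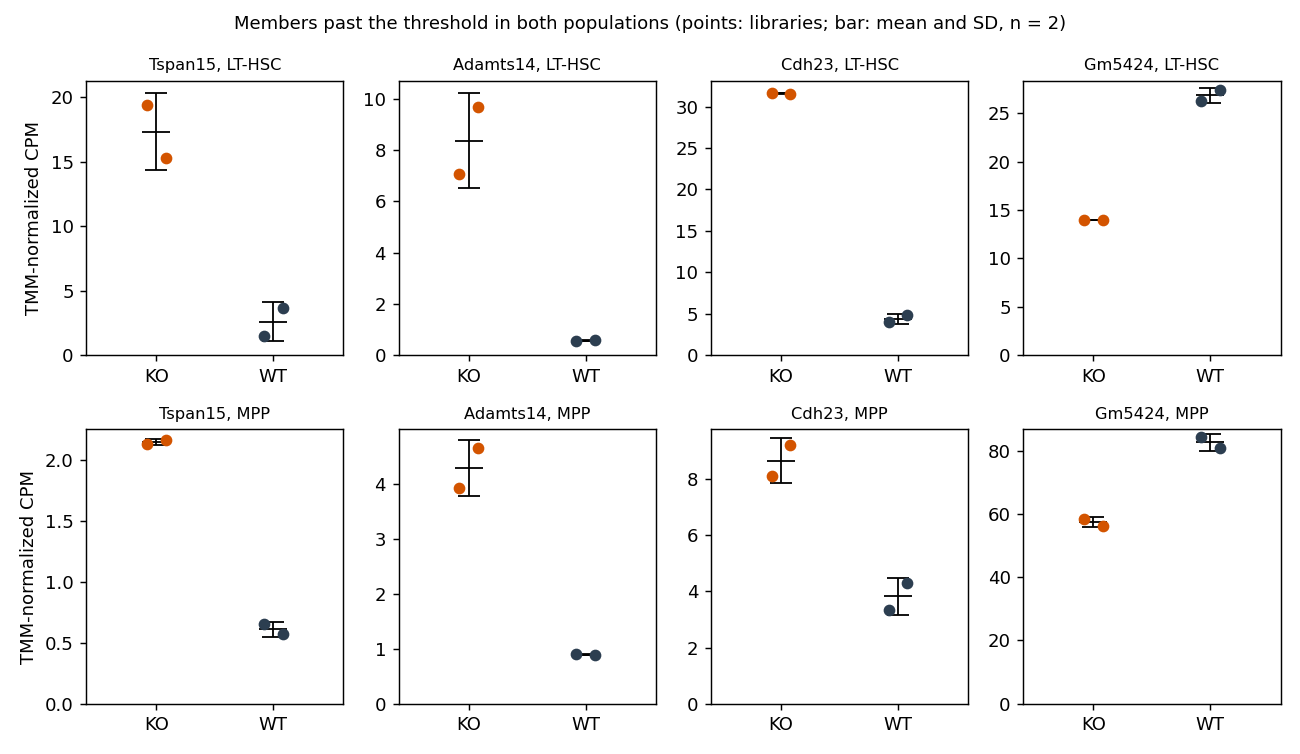
TMM-normalized CPM of Tspan15, Adamts14, Cdh23 and Gm5424 in LT-HSC (top row) and MPP (bottom row), with KO left of WT. Points are libraries and bars the mean and SD of 2. The KO points of Tspan15, Adamts14 and Cdh23 lie above and those of Gm5424 below the WT points in each panel.

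The other 5 members called in MPP were not called in LT-HSC. Chst3 (chr10:59644280-59682008), a sulfotransferase that modifies chondroitin sulfate, had 815 and 841 counts in MPP KO, compared with 488 and 508 in MPP WT (0.75 ± 0.08, adjusted p = 0.011), the lowest adjusted p among the members in MPP. Rhobtb1 (chr10:68614182-68754539), which lies 6.25 Mb after Tet1, had 346 and 436 counts in MPP KO, compared with 198 and 207 in MPP WT (0.97 ± 0.15, adjusted p = 0.0282). Dnajc12 (chr10:62845191-62871588), a co-chaperone of the heat shock 40 family and the called member nearest to Tet1 in MPP, had 34 and 46 counts in KO, compared with 13 and 11 in WT (1.75 ± 0.32, adjusted p = 0.0424). In each of the 3 genes both KO libraries exceeded both WT libraries. In LT-HSC, Chst3 had 25 and 29 counts in KO, compared with 14 and 23 in WT (0.54 ± 0.47, adjusted p = 0.416). Dnajc12 had 23 and 29 counts in LT-HSC KO, compared with 30 and 38 in LT-HSC WT (-0.38 ± 0.41, adjusted p = 0.516), and its fold change differed between the populations by -2.13 ± 0.50 on the log2 scale (adjusted p = 0.0194). For Chst3 and Rhobtb1 the difference between populations did not pass (-0.22, adjusted p = 0.68, and -0.88, adjusted p = 0.163).

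Prf1 (chr10:60760584-60767011) encodes perforin, the pore-forming protein of cytotoxic lymphocytes. It had 69 and 60 counts in MPP KO, compared with 24 and 23 in MPP WT (1.47 ± 0.21, adjusted p = 0.0251), and 0 counts in all 4 LT-HSC libraries, which allows up to 0.56 and 0.593 CPM per LT-HSC KO library and 0.547 and 0.603 per LT-HSC WT library, for counting error only. The T and NK markers summed to 99.7 to 101 CPM in MPP KO and 115 to 121 in MPP WT, with 1 of 4 called, and that one higher. The granulocyte and monocyte markers, with 4 of 4 tested called higher, summed to 1559.6 to 1598.8 CPM in MPP KO and 744 to 750 in MPP WT, where Ltf was at 0. Erythroid markers, with 5 of 8 called higher, summed to 1063.4 to 1070.8 CPM in MPP KO and 733 to 734 in MPP WT. The part of these cell types in the levels of the members was not tested. Hsf2 (chr10:57206191-57232939), a heat shock transcription factor gene, fell: it had 191 and 189 counts in MPP KO, compared with 272 and 284 in MPP WT (-0.53 ± 0.10, adjusted p = 0.0441). In LT-HSC it had 46 and 75 counts in KO, compared with 53 and 82 in WT, which overlap (-0.15 ± 0.38, adjusted p = 0.786).

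Leaving out 1 library leaves a group with a single library, which is then assumed to vary like the other group. In MPP such fits called 0 of 15467 genes in the whole table without WT library 1 and 0 of 15360 without WT library 2 by edgeR, with 13 and 12 members at an unadjusted p under 0.05. They called 1.75% of all genes without KO library 1, Rhobtb1 among them, and 1.63% without KO library 2, with 0 members called and 16 at an unadjusted p under 0.05. The loss of calls thus extended over the whole table and says little about the members. In each of the 9 both KO libraries lay on the same side of both WT libraries, so the sign of the fold change could not change in these fits. The log2 fold change of Chst3 stayed between 0.72 and 0.79 over all alternatives. DESeq2 called 6 of the 9 and ended Dnajc12, Tspan15 and Hsf2.

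**Figure D2:**
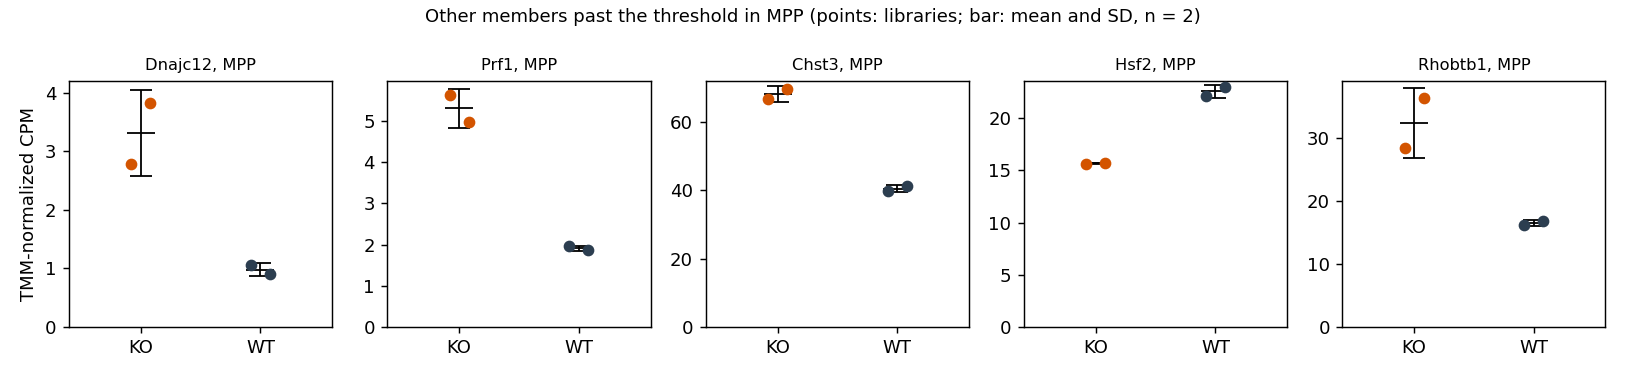
TMM-normalized CPM of the members called in MPP alone, Dnajc12, Prf1, Chst3, Hsf2 and Rhobtb1, in MPP KO (left in each panel) and MPP WT libraries. Points are libraries and bars the mean and SD of 2; KO points lie above WT points in each panel but that of Hsf2, where they lie below.

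By distance, the share of called members in MPP was 3 of 20 (15%) under 1 Mb, 3 of 16 (18.8%) between 1 and 2.5 Mb, 1 of 25 (4%) between 2.5 and 5 Mb and 2 of 27 (7.41%) between 5 and 10 Mb. Put together, 6 of 36 (16.7%) were called under 2.5 Mb and 3 of 52 (5.77%) farther out. Of the 6, 5 lay before Tet1, among 28 tested there, and 1 after it, among 8 tested. After Tet1 no member lay between 1 and 2.5 Mb, so the sides cannot be compared there. In LT-HSC the share did not follow distance: it was 7 of 24 (29.2%), 6 of 16 (37.5%), 7 of 24 (29.2%) and 9 of 29 (31%) in the same order. The median absolute log2 fold change in LT-HSC was 0.45, 0.32, 0.40 and 0.40 from the nearest to the farthest bin, beside 0.50 over all genes tested. In MPP it was 0.18, 0.16, 0.18 and 0.20, beside 0.19 over all genes tested. DESeq2 called 1 of 20, 3 of 16, 1 of 25 and 1 of 27 members in the MPP bins, beside 5.85% of all genes. Bins of 16 to 29 genes hold few calls, and no test was made of these shares. In equal bins of 2.5 Mb, edgeR called 16.7%, 4%, 14.3% (2 of 14) and 0% (0 of 13) of the MPP members from nearest to farthest. The MPP share thus did not fall steadily with distance and depended on the edges of the bins.

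**Figure D3:**
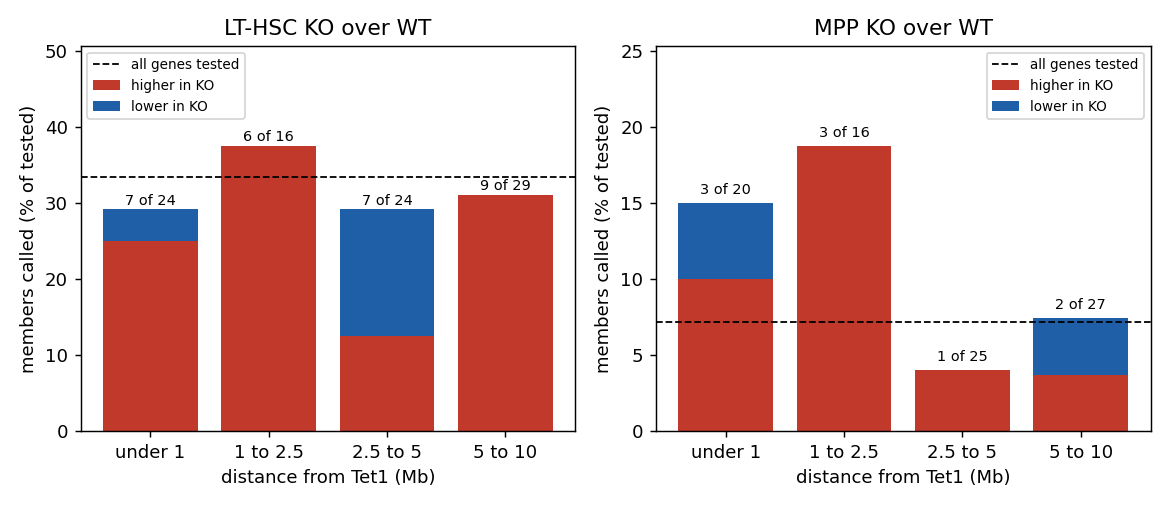
Percent of tested members called (vertical axis) by distance from Tet1 (horizontal axis) in LT-HSC (left) and MPP (right), split into higher and lower in KO, with the number called of those tested above each bar. The dashed line is the share over all genes tested, 33.4% in LT-HSC and 7.2% in MPP. The nearest 2 MPP bars stand above it, at 15% and 18.8%, on 3 calls each.

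In LT-HSC, most of the members that rose were long genes with few counts in WT cells. The 24 had a median span of 86.9 kb and a median of 2.35 CPM in WT, against 17.5 kb and 109.5 CPM for the 5 that fell. The 64 tested members not called had medians of 37.0 kb and 33.1 CPM. A member near 0 in WT passes the count filter only through its KO counts, so the low WT level of the rises follows in part from the filter. Over all 206 genes that span over 500 kb, the median was 0.451 and 0.384 counts per kb of span in the LT-HSC KO libraries and 0.0783 and 0.0699 in the LT-HSC WT libraries. The 103 of them with the fewest counts per kb in WT, a choice that uses the WT libraries, had a median of 0.401 and 0.342 counts per kb of span in the LT-HSC KO libraries against 0.0293 and 0.0357 in LT-HSC WT. In MPP the same median was 0.0275 and 0.0337 in the KO libraries, compared with 0.0199 and 0.0287 in the WT libraries. Scaled by span, that rate came to over 50% of the observed KO count in 14 of the 24 members that rose, with a median of 63.8% and a range of 3.31% to 166%. In the 5 that fell it came to at most 2.16%. In the 64 tested members not called the median was 7.02%, but it came to over 50% in 11 of them, with a maximum of 190%. Whether these reads come from the genes' own transcripts was not tested. Of the 29 LT-HSC calls, 14 were kept without KO library 1, 15 without KO library 2, 22 without WT library 1 and 28 without WT library 2, in fits that called 14.5%, 18.6%, 32.2% and 40.3% of all genes in the same order.

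With that rate subtracted from every gene and library, 6 of the 24 rises and 2 of the 5 falls were still called. For 12 rises too few counts were left to be tested. Of the 77 members then tested, 7.79% were higher and 2.6% lower, beside 8.34% and 6.31% over all genes. In either direction this was 10.4% of members against 14.7% of all genes. The rises kept were those of Tspan15, Npffr1, D630037F22Rik, Ipmk, Supv3l1 and Ccdc6. Adamts14 had too few counts left in LT-HSC, and Cdh23 no longer passed there (1.05, adjusted p = 0.397), nor did the fall of Gm5424 (-0.74, adjusted p = 0.0822). Each fit scales the libraries anew, and all 5 falls moved toward 0, as Ddit4 did (-0.998 to -0.80, rate 0.284% of its KO count). Supv3l1 (rate 3.31%) and Ccdc6 (4.73%) moved up, from 0.70 to 0.87 and 0.66 to 0.80. Other rises, Cdh23 (88.9%) among them, moved down. A call kept or ended thus does not reflect a gene's own rate alone. Tspan15 was then the 1 member of 74 called in both populations (1.81% of all genes tested in both), at 2.80 in LT-HSC (adjusted p = 0.0181). The 9 MPP calls were all kept under the same subtraction, an alternative chosen for MPP after seeing the data, and Spock2 joined them (10 of 85 members, beside 7.67% of all genes).

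**Figure D4:**
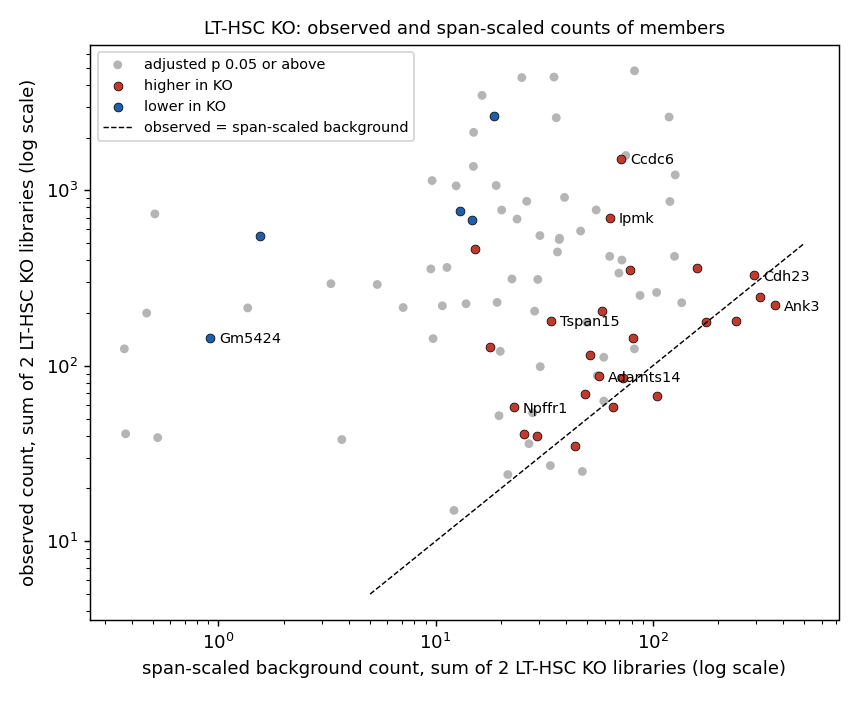
Observed count summed over the 2 LT-HSC KO libraries (vertical axis, log scale) against the count given by span times the rate of near-silent long genes (horizontal axis, log scale) for the members tested in LT-HSC. Many red points (called higher in KO) lie near the dashed line of equality, as Cdh23 (88.9% of its count) and Ank3 (166%) do, while Tspan15 (18.8%) and Ccdc6 (4.73%) lie above it.

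Among the rises that were kept, Ipmk (chr10:70810511-70896075), an inositol phosphate kinase gene 8.45 Mb after Tet1, had 325 and 374 counts in LT-HSC KO, compared with 161 and 190 in LT-HSC WT (0.996 ± 0.20, adjusted p = 0.00534). Ccdc6 (chr10:69559869-69655948), which in human thyroid cancer is found fused to RET, had 730 and 780 counts in LT-HSC KO, compared with 499 and 459 in LT-HSC WT (0.66 ± 0.16, adjusted p = 0.0125). Supv3l1 (chr10:61891957-61912486), a mitochondrial RNA helicase gene 0.355 Mb from Tet1, had 249 and 212 counts in LT-HSC KO, compared with 132 and 151 in LT-HSC WT (0.70 ± 0.21, adjusted p = 0.0316). The KO libraries lay above the WT libraries in all 3, and in MPP their log2 fold changes were -0.06, 0.05 and 0.00. Npffr1, a neuropeptide receptor gene, had 24 and 34 counts in LT-HSC KO, compared with 3 and 2 in LT-HSC WT (3.48 ± 0.61, adjusted p = 0.00334), and D630037F22Rik had 196 and 165 against 49 and 29 (2.21 ± 0.31, adjusted p = 0.00145). The rise of Ipmk ended without KO library 2 and that of Ccdc6 without either KO library, with adjusted p-values of up to 0.0627 and 0.145 over the alternatives, and that of Supv3l1 without either KO library, without WT library 1 and by DESeq2, with up to 0.26.

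The 5 members that fell in LT-HSC KO include genes of stress response and of the lysosome. Ddit4 (chr10:59412423-59414518), which encodes the mTORC1 inhibitor REDD1, had 285 and 264 counts in LT-HSC KO, compared with 610 and 489 in LT-HSC WT (-0.998 ± 0.18, adjusted p = 0.00357). Dnajb12 (chr10:59342304-59362050), a chaperone gene of the endoplasmic reticulum membrane, had 350 and 330 against 638 and 567 (-0.82 ± 0.16, adjusted p = 0.00522). Psap (chr10:59740375-59765345), the precursor of the saposins that help to break down sphingolipids in lysosomes, had 1474 and 1179 counts in LT-HSC KO, compared with 2511 and 1939 in LT-HSC WT (-0.74 ± 0.19, adjusted p = 0.0168). Smpdl3a, a phosphodiesterase gene related to acid sphingomyelinase, had 396 and 367 against 630 and 514 (-0.58 ± 0.17, adjusted p = 0.0302). The groups did not overlap in these 4. In MPP their adjusted p-values were 0.177, 0.76, 0.195 and 0.697, and the change differed between the populations for Ddit4 (-0.80 ± 0.17, adjusted p = 0.0148), Dnajb12 (-0.87 ± 0.15, adjusted p = 0.00684) and Psap (-0.98 ± 0.20, adjusted p = 0.0129), but not past the threshold for Smpdl3a (-0.53, adjusted p = 0.051). Without either KO library, the fall of Ddit4 alone among the 5 stayed called. With the span-scaled rate subtracted, the falls of Psap and Smpdl3a ended (-0.55, adjusted p = 0.0863, and -0.40, adjusted p = 0.151). The rate came to 0.699% and 1.7% of their KO counts, so these losses do not reflect the genes' own rate alone.

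Within 1 Mb of Tet1, LT-HSC KO also showed reads of genes that were at or near 0 in LT-HSC WT. Such genes could be tested only through their KO counts. Hkdc1, a hexokinase family gene, had 23 and 17 counts in LT-HSC KO, compared with 0 and 0 in LT-HSC WT, at least 13.4-fold higher against a floor of 3 counts over the WT group. Mypn, which encodes a protein of the muscle sarcomere, had 22 and 36 against 0 and 1, a ratio of 58.1 with a 95% exact interval of 10.02 to 2334. The row deposited as Pbld2 (ENSMUSG00000020068) had 19 and 22 against 2 and 6 (2.32 ± 0.62, adjusted p = 0.0206), while the row of its paralog, deposited as Pbld1 (ENSMUSG00000020072), had 4 and 11 against 33 and 17 (-1.71 ± 0.62, adjusted p = 0.0664). GENCODE M21 gives the second of these IDs the symbol Pbld2, so the names of the pair are uncertain, and reads of such paralogs may be split between them. Col13a1, a membrane collagen gene, had 27 and 40 against 7 and 12 (1.81 ± 0.52, adjusted p = 0.0276). The span-scaled rate came to 73.1% of the KO count of Hkdc1, 113% of that of Mypn, 62.5% of that of Pbld2 and 156% of that of Col13a1. Farther out, Unc5b, a netrin receptor gene, had 84 and 32 against 17 and 19 (1.68 ± 0.52, adjusted p = 0.0385), Lrrc20 158 and 194 against 90 and 116 (0.77 ± 0.25, adjusted p = 0.0423), and Ccdc138 113 and 92 against 46 and 63 (0.91 ± 0.30, adjusted p = 0.0483). The KO and WT libraries did not overlap in these 3. Without KO library 1 the log2 fold change of Unc5b was 0.84 (adjusted p = 0.448), and the span-scaled rate came to 44.2% of its KO count. The calls of all 3 ended without the count filter and with the rate subtracted. Phyhipl had 49 and 36 counts in LT-HSC KO, compared with 0 and 0 in LT-HSC WT, at least 28.4-fold higher, with a rate of 85.9% of its count, and in the long genes Slc35f1, Sh3rf3 and Ank3 the rate came to 127%, 134% and 166%.

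Members too low to be tested numbered 18 of 111 in LT-HSC and 22 of 110 in MPP. Tbata had 9 and 6 counts in LT-HSC KO and 0 and 0 in LT-HSC WT, at least 5.01-fold higher against a floor of 3 counts over the WT group. In the other direction, Gm9795 had 0 and 0 counts in LT-HSC KO and 4 and 6 in LT-HSC WT, at least 3.33-fold lower; its transcript matched that of Stard6 over its whole length, so reads of that pair could not be assigned with certainty. These are values with no test, chosen after they were seen, and Nodal was at 0 in all 4 MPP libraries.

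By role, the counts of called members are read against 22.5% higher and 10.9% lower over all genes tested in LT-HSC, and 4.74% higher and 2.46% lower in MPP. Of 9 tested genes of chromatin, transcription and replication, 0 were called by edgeR in LT-HSC (Sirt1 and Mcm9, a helicase of DNA repair, among them), and 1, Hsf2, was lower in MPP. Of 8 tested genes of trafficking and nuclear transport, 0 were called in either population, and of 4 RNA helicase and RNA-binding genes likewise 0. The list for the mitochondrion also holds genes of other compartments, such as Tysnd1 and Pcbd1. Of its 10 tested genes, 2 were higher in LT-HSC KO, Aifm2 (69 and 59 counts against 25 and 34, 1.12 ± 0.36, adjusted p = 0.0449) and Supv3l1, and 0 in MPP. Tfam, the factor that packages mitochondrial DNA, had -0.40 ± 0.21 in LT-HSC and -0.19 ± 0.09 in MPP (adjusted p = 0.184 and 0.268). Aifm2 overlaps H2afy2 by 618 bases.

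Of 10 tested metabolic genes 3 were higher in LT-HSC KO (Hkdc1, the row deposited as Pbld2, and Ipmk), and 0 of 7 were called in MPP. Of 8 genes of protein turnover and stress, 1 was higher (Ccdc6) and 2 were lower (Dnajb12 and Ddit4) in LT-HSC KO, and 1 was higher in MPP KO (Dnajc12). Of 5 tested genes listed for blood and immune cells, not all of them particular to these cells, 2 were higher (Unc5b and Tspan15) and 1 was lower (Psap) in LT-HSC KO. In MPP KO 2 were higher (Prf1 and Tspan15). Of the genes known mainly from other tissues, 6 of 11 tested were higher in LT-HSC KO (Cdh23, Adamts14, Npffr1, Mypn, Phyhipl and Bicc1) and 3 of 7 in MPP KO (Chst3, Cdh23 and Adamts14), with 0 lower, beside 22.5% and 4.74% of all genes tested. The tables hold 14 genes of that list, those not tested are not in these counts, and a low gene passes the filter through the group in which it is high. In LT-HSC KO the span-scaled rate came to 88.9% of the count of Cdh23, 65.2% of that of Adamts14 and 39.6% of that of Npffr1. For Mypn, Phyhipl and Bicc1 it came to 113%, 85.9% and 98.8%. With the rate subtracted, Npffr1 alone of the 6 was still called in LT-HSC. These lists were drawn up for the window with earlier results known, so their counts describe them and carry no test.

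Between the WT populations, 19 of 90 tested members were higher in LT-HSC WT than in MPP WT and 19 were lower, against 17.4% and 16.9% of the 14660 genes tested, or 42.2% of members against 34.3% in either direction. Dnajc12 had 30 and 38 counts in LT-HSC WT against 13 and 11 in MPP WT in spite of the lower depth of the LT-HSC libraries (2.70, adjusted p = 0.00434). Tspan15 averaged 2.59 CPM in LT-HSC WT and 0.61 in MPP WT (2.04, adjusted p = 0.0383), with each table scaled by itself. Edar, the receptor of ectodysplasin, averaged 6.43 CPM in LT-HSC WT and 1.1 in MPP WT (2.52, adjusted p = 0.00833). On the other side, Chst3 averaged 3.55 CPM in LT-HSC WT and 40.5 in MPP WT (-3.53, adjusted p = 0.000404), and Man1a, a mannosidase gene of the Golgi, 131 and 317 CPM (-1.30, adjusted p = 0.0017). Gm5424 averaged 26.8 CPM in LT-HSC WT and 82.7 in MPP WT (-1.64, adjusted p = 0.000594). Of the genes of this paragraph, Dnajc12, Tspan15, Chst3 and Gm5424 were called both between populations and between genotypes. Other members were too, Ddit4 and Hsf2 among them. Both kinds of comparison use the same WT libraries, so such calls are not independent. The libraries of the populations also differ in the number of cells, which cannot be told apart from the cell type. Edar and Man1a were chosen after their values were seen.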

How the data were processed

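RNA was measured in 8 libraries, 2 for each genotype (KO, WT) of each population (LT-HSC, MPP). Count columns were assigned by the genotype and replicate number they name, with 0 left over. The authors deposited 1 table per population with raw counts per Ensembl gene, gene symbols and mm9 coordinates. Symbols are printed as deposited; 20 members have another or no symbol under their ID in GENCODE M21. Per the file headers, they also hold the authors' log2 fold change and mean log2 CPM, their likelihood ratio score, and their p-value and false discovery rate, with no tool named. CASAVA, TopHat and the mm9 build were used per the submitters' processing notes. Those notes and the labels name no counter, strand setting or gene annotation.

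The deposited counts were tested on the whole table with edgeR 4.0.16 in R 4.3.3: filterByExpr, TMM normalization, quasi-likelihood test, Benjamini-Hochberg adjustment over all genes tested and a threshold of 0.05. Each population was fitted on its own 4 libraries, without the replicate number as a term. The interaction term was fitted on all 8 libraries, and the comparison of WT populations used the 4 WT libraries. The filter left 93 of 111 members in LT-HSC, where 1 (Prf1) was at 0 in all libraries, and 88 of 110 in MPP, where 1 (Nodal) was. Standard errors were derived from the fold change and its F statistic. A group at 0 gives a bound, taken at 3 counts over that group, and one at 1 to 3 counts gives a ratio with its 95% exact binomial interval. Intervals and floors cover counting error only.

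In data simulated for LT-HSC (15253 genes), edgeR called 97% of 4-fold and 30% of 2-fold changes, and in data simulated for MPP (14806 genes) 99% and 84%. Only a small set of genes was changed there, with the lowest counts left out. EdgeR made 130 and 195 calls in all, against 5246 and 1073 in the real data. With so few calls an adjusted p under 0.05 needs a lower unadjusted p. The rates therefore do not measure how many changes were missed among the members. The alternatives were DESeq2 size factors, other count filters, DESeq2 1.42.0, 1 fit of all 8 libraries, the replicate number as a block, subtraction of a count rate per kb of gene span and leaving out each library. That rate is the median over the long genes with the fewest WT counts per kb in each population.

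The members, the role and marker lists and the tests were chosen with earlier results of these data known. The genes named by rule are the tested members within 1 Mb, those called in both populations, the 12 largest rises and falls per population at 50 or more normalized counts on average, and up to 4 called genes per role list. Others named with values are Edar, Man1a, Tfam, Tbata, Tacr2, Gm9795 and D630037F22Rik. Promoters are from RefSeq (GRCm38.p6), where 88 of 115 members matched by symbol, and transcripts were aligned with blastn 2.17.0 to GENCODE M21.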

Additional observations from a re-analysis of the deposited data

Results flagged for a closer look

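In 22 of 100 members tested, the effect of the KO differed between LT-HSC and MPP by the interaction term of edgeR (adjusted p under 0.05), against 22.1% of the 16551 genes tested. Values below are the log2 fold change of KO over WT in LT-HSC minus that in MPP. Among genes counted in all 4 groups it was positive for Gm9766 (0.57, adjusted p = 0.0441), D630037F22Rik (1.99, adjusted p = 0.00437), Pkib (1.80, adjusted p = 0.0142), Ccdc138 (1.31, adjusted p = 0.0298) and Cdh23 (1.65, adjusted p = 0.0105). It was likewise positive for Supv3l1 (0.69, adjusted p = 0.0364), Ank3 (3.16, adjusted p = 0.035), Ccdc6 (0.60, adjusted p = 0.026) and Ipmk (1.05, adjusted p = 0.014). It was negative for Dnajb12 (-0.87, adjusted p = 0.00684), Ddit4 (-0.80, adjusted p = 0.0148), Psap (-0.98, adjusted p = 0.0129), Spock2 (-2.50, adjusted p = 0.0122) and Dnajc12 (-2.13, adjusted p = 0.0194). Spock2, a proteoglycan gene, had 10 and 14 counts in LT-HSC KO, compared with 26 and 25 in LT-HSC WT, and 33 and 36 in MPP KO, compared with 12 and 14 in MPP WT. In Spock2, Dnajc12 and Psap both KO libraries lay below both WT libraries in LT-HSC and above them in MPP. In Gm9766 and Ccdc138 they lay above in LT-HSC and below in MPP.

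In the other members a group had few counts. The row deposited as Pbld2 had 3.47 (adjusted p = 0.021), on 19 and 22 counts in LT-HSC KO, compared with 2 and 6 in LT-HSC WT, and 5 and 6 in MPP KO, compared with 16 and 9 in MPP WT. Tmem26 had 3.06 (adjusted p = 0.0447), with 3 and 0 counts in LT-HSC WT. For genes with a group at or near 0, the fitted difference depends on the prior count and is no bound. These were Gm9795 (-7.50), with 0 and 0 counts in LT-HSC KO, compared with 4 and 6 in LT-HSC WT; the row deposited as Pbld1 (-6.14), with 2 and 5 counts in MPP KO, compared with 0 and 0 in MPP WT; and Npffr1 (7.69), with 0 and 0 in MPP KO, compared with 1 and 5 in MPP WT. The others were Hkdc1 (7.99) and Phyhipl (8.40), at 0 in both LT-HSC WT libraries, and 4930533K18Rik (5.89), with 1 and 0 counts there. The transcript of Gm9795 matched that of Stard6 over its whole length.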

How the results depend on the processing

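Scaling by DESeq2 size factors kept the 29 LT-HSC and 9 MPP calls. With 1 library left out in turn, members higher in LT-HSC KO numbered 14 to 26 and lower 1 to 10, and in MPP KO 0 to 1 higher and 0 to 0 lower. Members called in both populations then numbered 0 to 4, interaction members 4 to 28, and members higher and lower in LT-HSC WT than in MPP WT 8 to 19 and 10 to 29. Without a filter on low counts, MPP gave 3 higher and 1 lower. In that setting 2 members (Adamts14 and Gm5424) were called in both populations, 1.9% of members against 1.19% of all genes. One fit of all 8 libraries gave 11 lower in LT-HSC, where 3024 of all 16551 genes were lower, and 4 higher and 1 lower in MPP. DESeq2 gave 1 lower in MPP. In MPP all genes were called at 3.05%, 3.02% and 5.85% in these 3 settings. With the count rate per kb subtracted, LT-HSC gave 6 higher and 2 lower, both populations together 1 and the interaction 14 (15.6% of members against 14.1% of all genes). The replicate numbers are not stated to pair libraries, and with 2 pairs per comparison the correlation of same-numbered deviations (0.424 in LT-HSC, 0.683 in MPP) does not decide it. A fit with the replicate number as a block gave 19 lower and 30 higher in LT-HSC, 25 higher and 16 lower in MPP, 11 in both populations and 41 for the interaction. Its shares of members against all genes were 52.7% against 56.3% in LT-HSC, 46.6% against 48.5% in MPP, 13.4% against 18.8% in both and 41% against 41.7% for the interaction. Of the fold changes of single named genes under the alternatives, 751 kept direction and side of the threshold, 102 kept direction and lost the call, 23 kept direction and gained one, and 0 changed sign as calls. Low counts limit genes such as Tspan15 in MPP. The cause of these movements was not tested.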
